A study of Arabidopsis thaliana with 8 samples.

Results

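The plastid-encoded genes are the genes of the chloroplast's own chromosome, and 67 of them were followed here in Arabidopsis protoplasts, cells freed of their walls. They were taken from an Affymetrix array by the number of the probe set and by the gene symbol in the platform annotation, with 1 probe set for each gene, out of 13513 probe sets that name 1 gene and 22746 outside the array's own controls. The rule itself uses no measured value. All 67 genes lie on the plastid chromosome in the RefSeq gene table (assembly TAIR10.1, used for names and gene order alone). They comprise 5 genes of photosystem I, 15 of photosystem II, 6 of the cytochrome b6f complex, 10 of the NADH dehydrogenase-like (NDH) complex, 6 of the ATP synthase, the large Rubisco subunit gene rbcL, 7 of the large and 8 of the small ribosomal subunit, 4 of the plastid RNA polymerase, and 5 others. A further 8 plastid probe sets whose annotation holds more than 1 gene entry, and 2 with symbols of another kind (ccsA and cemA), were outside the choice.

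Proteins of the photosynthetic membrane are built from subunits of both genomes, and the plastid chromosome keeps mainly the reaction centres, some small subunits and much of the plastid's ribosome. Most plastid genes are read as long transcripts of several genes, which are then cut and trimmed, and transcript levels depend strongly on RNA-binding proteins made in the cytosol. A bacterial-type polymerase, whose core is plastid-encoded, reads the photosynthesis genes, while a phage-type polymerase encoded in the nucleus reads rpoB, rpoC1 and rpoC2 of that core and accD. Plastid ribosomes are bacterial in type and are not the target of cycloheximide, which stops translation on cytosolic ribosomes.

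The study asked which genes the transcription factors SND1 and VND7 switch on directly. Both are NAC-domain proteins, SND1 known for fibre walls and VND7 for the walls of xylem vessels. Cells carried SND1XVE or VND7XVE, the factor joined to a regulatory part that estradiol activates, and 8 arrays fell into 4 groups of 2: controls and estradiol arrays of SND1XVE, and controls and estradiol arrays of VND7XVE. All 4 groups received cycloheximide, and the estradiol groups received estradiol as well. No group without a factor received estradiol, so an effect of the factor and an effect of the hormone itself cannot be told apart. The labels give no promoter, no number of clones or plants and no batch. Whether the 2 arrays of a group stem from different cultures is not stated, and the spread that p-values rest on may therefore be technical. A line and the preparation of its cells cannot be told apart either.

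Values are array signals in the authors' intensity units, scaled to a common array mean, and signals of different genes cannot be set against each other. The 4 control arrays had medians of 98.2 to 101.4, and the 4 estradiol arrays medians of 107.5 to 109.3. The correlation of log2 signals between the arrays of a group was 0.977 to 0.985. The labelling kit starts from the poly(A) tail, which plastid transcripts carry only in passing, so a signal here is that of the labelled part of each transcript, and its share was not tested. Differences are on the scale of log2(signal + 16), with the moderated standard error (SE), and were tested with limma over 14768 probe sets that passed a filter on low signal, with Benjamini-Hochberg adjustment over all of them and a threshold of 0.05. Of the 67 genes, 65 were tested, and 58 exceeded the 40th percentile of signals on each of the 8 arrays. The NDH gene ndhF, at 0.6 to 15.1, and the ribosomal gene rps16, at 2.6 to 49.3, were not tested. The polymerase gene rpoB and the ribosomal gene rps14 passed the filter only through the VND7XVE arrays, and neither was called in any comparison.

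More plastid genes differed between the lines than with estradiol. Without estradiol, 52 of the 65 tested genes were higher in VND7XVE than in SND1XVE control cells, 0 were lower, and 13 did not pass the test (at an unadjusted p under 0.05, 56 were higher and 0 lower). Over all probe sets tested, 13.7% were called higher and 13.8% lower in the same comparison at the adjusted threshold. The matching shares at the unadjusted threshold were not computed. The median difference over all 67 genes was 0.67 on the log2 scale, against 0.00 (-0.0007) over all probe sets, and 66 of 67 differences were positive. For 60 of the 67 genes (59 of those tested), both VND7XVE control arrays lay above both SND1XVE control arrays, which held for 30.9% of all probe sets tested. The 59 include rps14, which was tested only because of its signal on the VND7XVE arrays. The median of the 67 genes was 0.62 and 0.72 above the mean of the SND1XVE controls on the 2 VND7XVE control arrays, and 0.46 and 0.56 above it on the VND7XVE estradiol arrays. It was 0.21 and 0.08 below that mean on the SND1XVE estradiol arrays (-0.2099 and -0.0844).

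**Figure D1:**
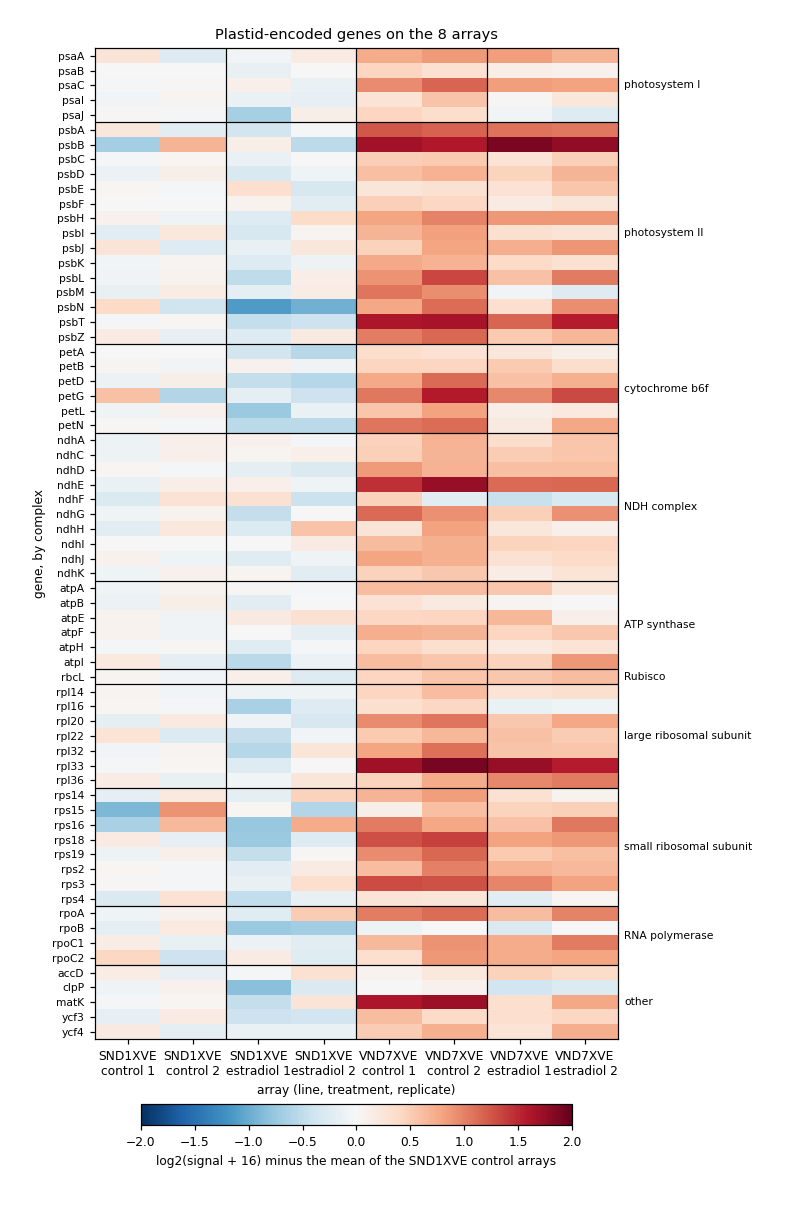
Colour gives log2(signal + 16) of each of the 67 plastid-encoded genes (rows, by complex) on each of the 8 arrays (columns), minus the mean of that gene on the 2 SND1XVE control arrays. The 4 VND7XVE columns are mostly red, with array medians of 0.46 to 0.72, and the SND1XVE estradiol columns are pale or blue, with medians of -0.2099 and -0.0844.

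The ribosomal protein gene rpl33 had the largest difference between the controls. Its signal was 259.6 and 277.1 on the SND1XVE control arrays and 901.9 and 1046.4 on the VND7XVE control arrays, a difference of 1.80 (SE 0.14, adjusted p = 1.32e-07). With estradiol it was 220.6 and 270.1 in SND1XVE and 934.0 and 827.8 in VND7XVE. All 4 VND7XVE arrays thus lay above all 4 SND1XVE arrays, and the mean signal of the controls was 3.63 times higher. The intron maturase gene matK, whose product helps splice plastid introns, stood at 1114.4 and 1181.1 in SND1XVE and 3562.3 and 3792.1 in VND7XVE controls. Its difference was 1.67 (SE 0.18, adjusted p = 5.08e-06).

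Photosystem II, which takes electrons from water, had 14 of its 15 genes higher in the VND7XVE controls, with a median difference of 0.89. The antenna protein gene psbB (CP47) was measured at 338.9 and 886.7 in SND1XVE and at 1800.6 and 1698.8 in VND7XVE controls. The SND1XVE control arrays of this gene stood far apart from each other, but both lay below the VND7XVE pair, and the difference was 1.64 (SE 0.29, adjusted p = 0.000463). The small subunit gene psbT, its neighbour, stood at 147.2 and 157.5 against 500.0 and 511.6, a difference of 1.63 (SE 0.17, adjusted p = 2.67e-06). The reaction centre gene psbA encodes D1, the protein that is replaced fastest in light. Its signal was 7712.4 and 5653.7 in SND1XVE and 15656.2 and 14980.2 in VND7XVE controls, and the difference was 1.21 (SE 0.13, adjusted p = 5.08e-06). For psbL, another small subunit, the values were 340.5 and 374.3 against 676.9 and 927.3, with a difference of 1.12 (SE 0.20, adjusted p = 0.00064). The other 10 genes called in this complex had differences between 0.45 and 1.08, among them psbD, the D2 reaction centre gene, at 0.65. The gene psbE, for a subunit of cytochrome b559, had a difference of 0.27 (SE 0.16, adjusted p = 0.235).

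In photosystem I, which passes electrons on to ferredoxin, 4 of 5 genes were higher in the VND7XVE controls, with a median difference of 0.43. The iron-sulphur protein gene psaC differed by 1.05 (SE 0.12, adjusted p = 8.95e-06). The reaction centre genes psaA and psaB differed by 0.80 and 0.36. For psaB, the brightest probe set of this complex, signals were 16399.1 and 16360.1 in SND1XVE and 21973.3 and 20223.9 in VND7XVE controls. The small subunit gene psaJ had a difference of 0.38 (SE 0.17, adjusted p = 0.104).

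The cytochrome b6f complex, which links the photosystems, had all 6 of its genes higher, with a median difference of 0.81. Its small subunit gene petG was at 290.0 and 118.6 in SND1XVE and at 405.1 and 596.0 in VND7XVE controls, a difference of 1.32 (SE 0.28, adjusted p = 0.00233). This probe set spread widely within each group, and the groups did not overlap. The genes of cytochrome f, cytochrome b6 and subunit IV (petA, petB and petD) differed by 0.31, 0.43 and 0.94, and the small subunit genes petL and petN by 0.67 and 1.09. The brightest of them, petB, had signals of 10779.6 and 10090.0 against 14093.2 and 14011.6.

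Of the NDH complex, which returns electrons to the plastoquinone pool, 8 of 9 tested genes were higher, and the median over its 10 genes was 0.63. The largest difference was that of ndhE, at 294.3 and 359.1 in SND1XVE and 923.1 and 1123.2 in VND7XVE controls, which came to 1.60 (SE 0.14, adjusted p = 5.19e-07). The brightest was ndhI, at 7173.8 and 7234.5 against 11136.9 and 11863.2, with a difference of 0.67. The remaining 6 genes called had differences between 0.50 and 1.02. The dim gene ndhH, at 29.7 and 45.2 against 47.2 and 76.4, did not pass the test (adjusted p = 0.344).

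The ATP synthase had 4 of 6 genes higher and a median difference of 0.51, and rbcL was higher by 0.49 (SE 0.13, adjusted p = 0.0117). The rbcL signal was 609.4 and 558.7 in SND1XVE and 790.7 and 868.5 in VND7XVE controls. The genes atpF, atpA, atpE and atpH differed by 0.70, 0.61, 0.43 and 0.37. The brightest, atpE, stood at 18631.1 and 16730.5 against 23645.2 and 23912.2. The beta subunit gene atpB had a difference of 0.24 (SE 0.10, adjusted p = 0.106) and the membrane subunit gene atpI one of 0.59 (SE 0.29, adjusted p = 0.153).

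Genes of the plastid's own expression machinery were higher as well, 13 of 18 tested, while 37 of 42 tested photosynthesis genes were. All 7 genes of the large ribosomal subunit were called, with a median of 0.59, and apart from rpl33 they differed by 0.37 to 1.00. The brightest of them, rpl32, stood at 2530.8 and 2757.6 in SND1XVE and at 4590.0 and 5685.4 in VND7XVE controls. Of the small subunit, 4 of 7 tested genes were called, and the median over its 8 genes was 0.86. Its rps18 was at 94.9 and 72.6 against 225.6 and 238.7, a difference of 1.32 (SE 0.23, adjusted p = 0.000485). Its rps3 was at 422.6 and 406.3 against 1047.0 and 1019.0, a difference of 1.29 (SE 0.15, adjusted p = 8.37e-06). The other small subunit genes called were rps19, at 1.05, and rps2, at 0.81. The brightest, rps4, overlapped between the groups, with 3269.9 and 4921.9 against 4820.7 and 4732.5 (adjusted p = 0.266).

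Among the genes of the RNA polymerase, rpoA (alpha subunit) and rpoC1 (a beta-prime subunit) were higher by 1.07 and 0.77. The beta subunit gene rpoB had the one negative difference of the 67, at -0.04 (SE 0.37, adjusted p = 0.948), with signals of 42.4 and 60.3 in SND1XVE and 46.5 and 51.0 in VND7XVE controls. The gene rpoC2 had a difference of 0.60 (SE 0.26, adjusted p = 0.0951). Of the 4 genes read by the nuclear-encoded polymerase alone (accD, rpoB, rpoC1 and rpoC2), 1 was called, and their median difference was 0.37. On the estradiol arrays 2 of these 4 were higher in VND7XVE, with a median of 0.69, against 0.66 over all 67 genes. In the controls the gene accD, for a subunit of the enzyme that begins fatty acid synthesis, was at 366.2 and 293.1 against 344.0 and 381.3. The control groups thus overlapped (difference 0.14, SE 0.16, adjusted p = 0.564). So did clpP, for the proteolytic subunit of the Clp protease, at 3594.8 and 4066.6 against 3837.6 and 4045.5 (difference 0.04, SE 0.14, adjusted p = 0.857). The photosystem I assembly gene ycf4 was higher by 0.61, and ycf3, with the same role, had a difference of 0.50 (SE 0.20, adjusted p = 0.0798).

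**Figure D2:**
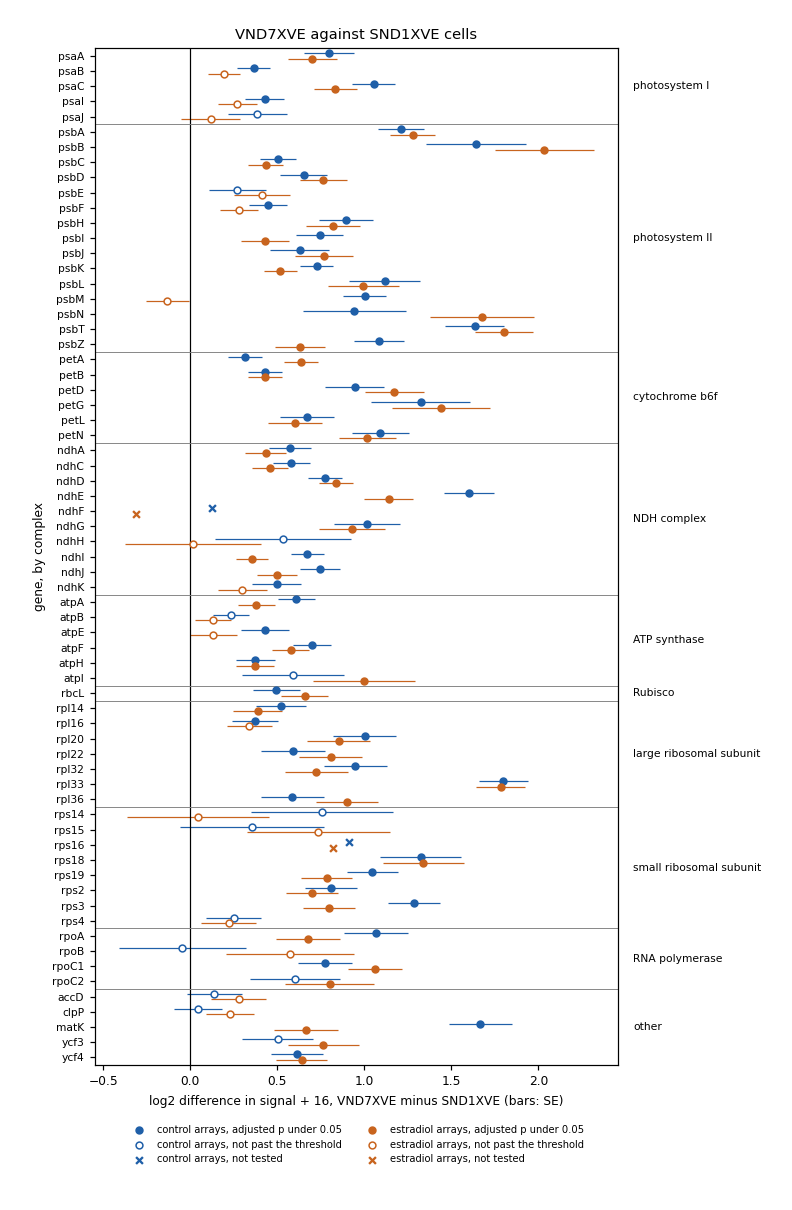
Each gene's difference between the lines, VND7XVE minus SND1XVE, in log2(signal + 16), with bars of 1 moderated SE, on the control arrays (blue) and on the estradiol arrays (orange), 2 arrays a group. Filled points passed the adjusted threshold, 52 of 65 on control and 48 of 65 on estradiol arrays, and all of these lie to the right of 0.

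The lines were set against each other again on the estradiol arrays, a comparison added after the values had been seen, which shares no array with the comparison of controls. Here 48 of 65 genes were higher in VND7XVE, 0 were lower and 17 did not pass the test (at an unadjusted p under 0.05, 53 were higher and 0 lower). Over all probe sets tested, 14.1% were called higher and 16.5% lower at the adjusted threshold, and shares at the unadjusted threshold were not computed. The median was 0.66 against -0.05 over all probe sets, and the arrays of the 2 lines did not overlap for 57 of 67 genes, all of them tested, against 29.2% of all probe sets tested. The 57 include rpoB, which was tested only because of its signal on the VND7XVE arrays. Both comparisons called 45 genes higher, 7 genes were called on the control arrays alone, 3 on the estradiol arrays alone and 10 in neither. Across the 67 genes, Pearson's r between the 2 sets of differences was 0.728 and Spearman's rho 0.713. Genes are not independent replicates, and the 2 comparisons share the lines and the probe sets, so these values are descriptions.

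With estradiol the largest difference was that of psbB, at 595.1 and 379.0 in SND1XVE and 2081.9 and 1912.3 in VND7XVE, which came to 2.03 (SE 0.29, adjusted p = 5.25e-05). It was followed by psbT at 1.80 (SE 0.17, adjusted p = 6.07e-07) and rpl33 at 1.78 (SE 0.14, adjusted p = 9.13e-08). The gene psbN, known in tobacco to act in photosystem II assembly, stood at 30.1 and 35.8 against 110.6 and 177.1, a difference of 1.68 (SE 0.30, adjusted p = 0.000455). For petG it was 1.44, for rps18 1.34, for psbA 1.28, for petD 1.17, for ndhE 1.14 and for rpoC1 1.06, and all of these passed the test. The 3 genes called here and not among the controls were atpI (1.00), rpoC2 (0.80) and ycf3 (0.77). By complex, 12 of 15 genes of photosystem II, 2 of 5 of photosystem I, 6 of 6 of cytochrome b6f, 7 of 9 of the NDH complex, 4 of 6 of the ATP synthase, rbcL, 6 of 7 of the large and 4 of 7 of the small ribosomal subunit, 3 of 4 of the polymerase and 3 of 5 others were higher. The photosystem II gene psbM was the only one of the 65 tested genes with a negative difference on these arrays. Its difference was -0.13 (SE 0.12, adjusted p = 0.466), with 13803.7 and 17501.1 in SND1XVE and 15201.7 and 13245.4 in VND7XVE.

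Other measures moved with the line too. The ratio of the actin control's 3' to its 5' probe set, a sign of RNA length or of labelling, was 2.80 and 2.87 in the SND1XVE controls, 3.30 and 3.21 in the SND1XVE estradiol arrays, 3.72 and 4.16 in the VND7XVE controls and 4.64 and 3.98 in the VND7XVE estradiol arrays. The same ratio for GAPDH stayed between 0.94 and 1.08 on all arrays. The part of RNA integrity or labelling in the line difference was not tested. The bulk signal also cannot tell more cells rich in chloroplasts from more plastid RNA in each cell. Of the cell type markers listed, few are named by the annotation used: of 16 light-harvesting genes LHCB4.1 and LHCB4.2, of 5 Rubisco genes RCA (Rubisco activase), of 4 guard cell genes FMA, of 3 root hair genes EXPA7, and of 3 epidermis, 3 phloem and 4 xylem genes 0. In the limma comparison of the controls, LHCB4.1 was higher in VND7XVE by 1.04 (SE 0.10, adjusted p = 1.04e-06). LHCB4.2 had a difference of 0.17 (SE 0.13, adjusted p = 0.361). RCA stood at 2489.9 and 2191.6 in SND1XVE and at 2762.9 and 2762.0 in VND7XVE controls (difference 0.24, SE 0.10, adjusted p = 0.0952). FMA stood at 118.3 and 94.7 in SND1XVE and, below both, at 49.1 and 82.9 in VND7XVE controls (difference -0.60, SE 0.31, adjusted p = 0.167). EXPA7 lay between 3.5 and 39.6 on the 8 arrays. The part of cell types in the line difference was not tested.

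Nuclear genes for photosynthesis were examined beside them, though 12 of the 55 listed are named. Of these 12, 6 were higher in the VND7XVE controls and 0 lower, with a median difference of 0.38, and 7 were higher on the estradiol arrays. The 6 were LHCB4.1, an antenna protein of photosystem II, at 1.04 (SE 0.10, adjusted p = 1.04e-06), ATPC1 of the ATP synthase at 0.68, PSBW of photosystem II at 0.65, NdhS of the NDH complex at 0.64, and PSAE-1 and PSAN of photosystem I at 0.47 and 0.41. They were named after their values were seen. LHCB4.1 had signals of 2663.5 and 2713.3 in SND1XVE and 5600.0 and 5473.7 in VND7XVE controls. Of the 7 mitochondrially encoded genes named, 6 were tested, and 1 was higher in the VND7XVE controls, nad4, a subunit of respiratory complex I, at 0.67 (SE 0.20, adjusted p = 0.0222). Their median difference was 0.37, and 2 of 6, nad4 and cox2, were higher on the estradiol arrays. Of the 10 plastid probe sets outside the choice, 8 were tested and 3 were higher in the controls, with differences of 0.41 to 0.93. For comparison, 13.7% of all probe sets tested were called higher among the controls and 14.1% on the estradiol arrays. The count of 1 mitochondrial gene of 6 among the controls was near that share. The nuclear gene of an organelle polymerase that is listed by its locus code, AT5G15700, had a difference of -0.12 (SE 0.18, adjusted p = 0.675).

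Genes of one transcription unit had unequal estimates of the difference, and no test compared them with each other. The low ends at ndhH and psbE in the ranges below belong to genes that were not called. In the psbB operon (psbB, psbT, psbH, petB and petD) the control differences ran from 0.43 for petB to 1.64 for psbB. In the unit from ndhH to ndhD, which also holds psaC, they ran from 0.53 to 1.60, and in psbE-psbF-psbL-psbJ from 0.27 to 1.12. Among the 7 of the 67 genes that lie in the ribosomal operon, they ran from 0.37 to 1.29. They were closer in rps2-atpI-atpH-atpF-atpA, from 0.37 to 0.81, in psaA-psaB-rps14, from 0.36 to 0.80, and in ndhC-ndhK-ndhJ, from 0.50 to 0.75. In atpB-atpE they were 0.24 and 0.43. The range was 0.50 to 1.08 in psbD-psbC-psbZ and -0.04 to 0.77 in rpoB-rpoC1-rpoC2. Across the 67 genes, Spearman's rho of the control difference with the mean signal was -0.159 and with gene length -0.316, given as descriptions.

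**Figure D3:**
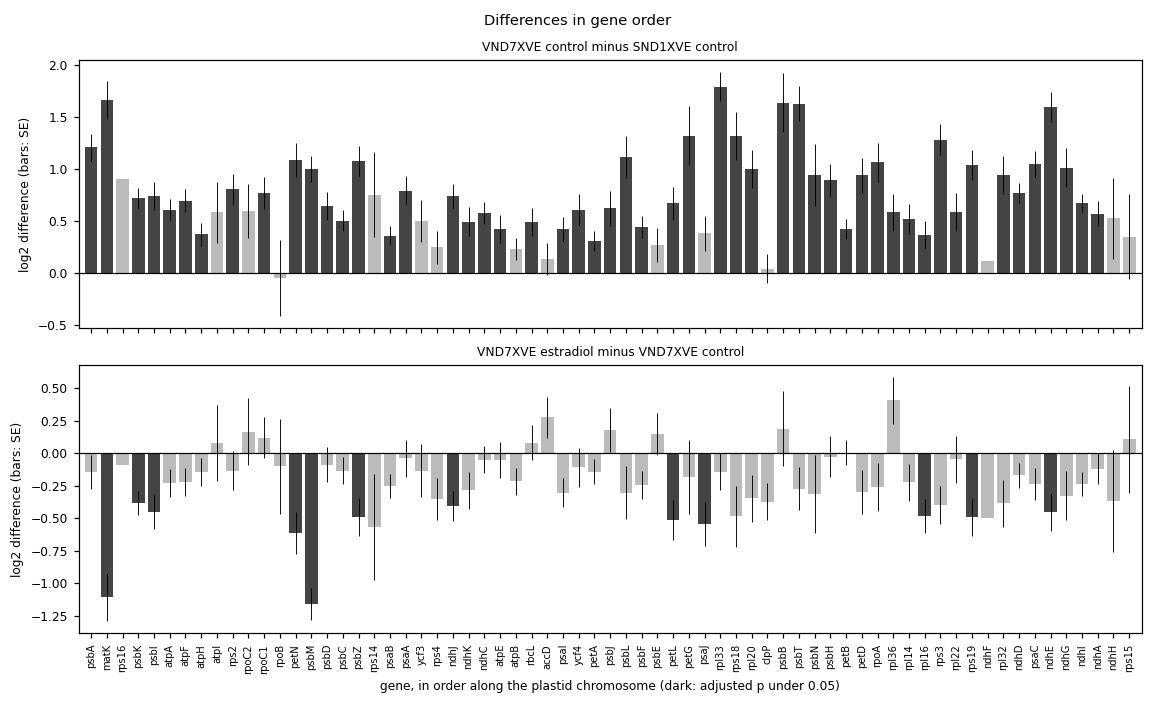
Bars give the log2 difference of each gene, in the order of the genes along the plastid chromosome, between the VND7XVE and SND1XVE controls (upper panel) and between VND7XVE estradiol and control arrays (lower panel), with 1 moderated SE and without SE for the 2 genes not tested. Dark bars passed the adjusted threshold, 52 in the upper and 12 in the lower panel, and the deepest bars of the lower panel are psbM (-1.16) and matK (-1.11).

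The response to estradiol was smaller. In VND7XVE cells 0 of 65 plastid genes rose and 12 fell, while 8.15% of all probe sets tested rose and 6.37% fell. At an unadjusted p under 0.05, 1 gene was higher and 20 were lower, but the matching shares of all probe sets were not computed. The median over the 67 genes was -0.23, against -0.03 over all probe sets, and 56 of 67 differences were negative. For 40 of the 67 genes, 39 of them tested, both estradiol arrays lay below both controls, which held for 30.8% of all probe sets tested. The count rests on having all the VND7XVE arrays. With any 1 of these arrays left out, fewer plastid genes fell, and so did a smaller share of all probe sets. Without control replicate 2, and also without estradiol replicate 2, the share of plastid genes that fell was near that of all probe sets. When each array was centred on its median, which moved the median of all probe sets from -0.03 to -0.15, 22 genes fell, against 13.12% of all probe sets. Without the intensity trend in the variance 2 fell, near the background of 2.51%.

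The largest fall was that of psbM, a small subunit where the monomers of the photosystem II dimer touch. Its signal was 33237.2 and 30241.4 in the VND7XVE controls and 15201.7 and 13245.4 with estradiol, a fall of 1.16 (log2 difference -1.16, SE 0.12, adjusted p = 3.56e-06). In SND1XVE it was 14344.7 and 17467.7 in the controls and 13803.7 and 17501.1 with estradiol. The VND7XVE estradiol arrays thus fell within or just below the range of the SND1XVE arrays, and the VND7XVE controls alone stood high. The gene matK followed, from 3562.3 and 3792.1 to 1457.5 and 1976.0 (-1.11, SE 0.18, adjusted p = 0.000361). In SND1XVE matK was at 1114.4 and 1181.1 in the controls and at 822.2 and 1377.5 with estradiol. With estradiol the VND7XVE arrays of matK still lay above all SND1XVE arrays.

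The other 10 genes that fell in VND7XVE did so by less. The cytochrome b6f small subunit gene petN fell from 821.3 and 851.7 to 438.0 and 669.7 (-0.61, SE 0.16, adjusted p = 0.0168), and petL, of the same complex, from 2518.5 and 2995.6 to 1883.3 and 1959.2 (-0.51, SE 0.15, adjusted p = 0.0344). In photosystem I, psaJ fell from 20289.1 and 19194.4 to 14515.3 and 12641.9 (-0.54, SE 0.17, adjusted p = 0.0399). On all of these the estradiol arrays lay below both controls. In photosystem II, psbZ fell from 1881.0 and 2043.3 to 1323.9 and 1463.5 (-0.49), psbI from 7788.0 and 8580.0 to 6087.8 and 5885.7 (-0.45) and psbK from 16452.2 and 15823.7 to 12678.0 and 12061.1 (-0.38). Their adjusted p-values were 0.0297, 0.0348 and 0.0105. Of the ribosome, rps19 fell from 2044.7 and 2369.2 to 1518.8 and 1607.5 (-0.49, adjusted p = 0.0298) and rpl16 from 1069.9 and 1147.0 to 771.9 and 804.3 (-0.48, adjusted p = 0.0182). Of the NDH complex, ndhE fell from 923.1 and 1123.2 to 735.8 and 741.3 (-0.46, adjusted p = 0.0399) and ndhJ from 1354.8 and 1274.8 to 961.9 and 1013.3 (-0.41, adjusted p = 0.0242). No gene of the ATP synthase or of the RNA polymerase passed the test, nor did rbcL.

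In SND1XVE cells 0 of 65 genes rose and 6 fell, while 9.37% of all probe sets tested rose and 7.06% fell. At an unadjusted p under 0.05, 0 were higher and 10 were lower, but the matching shares of all probe sets were not computed. The share that fell at the adjusted threshold, 6 of 65, was near the background of 7.06%. The median over the 67 genes was -0.13 against 0.02 over all probe sets, and 50 of 67 differences were negative. For 18 of 67 genes, all tested, the estradiol arrays lay below both controls, against 24.6% of all probe sets tested. The count of genes that fell was 2 without the filter on low signal, against 3.55% of all probe sets. It was 2 without the intensity trend, against 3.97%, and 3 when the SND1XVE arrays were fitted alone, against 6.2%. With SND1XVE estradiol replicate 1 or SND1XVE control replicate 2 left out, the count was smaller too, as was the share of all probe sets. With median centring 9 fell, against 11.27% of all probe sets, and with quantile normalization 7 fell, against 7.85%. After quantile normalization 1 gene, atpE, also rose by 0.36 (adjusted p = 0.0436).

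The genes that fell in SND1XVE were led by psbN, from 117.1 and 60.4 to 30.1 and 35.8 (-1.05, SE 0.30, adjusted p = 0.0229). The control arrays of this dim gene stood far apart from each other, and both lay above the estradiol arrays. The clpP signal fell from 3594.8 and 4066.6 to 2142.9 and 3136.8 (-0.56, SE 0.14, adjusted p = 0.00989). Of the cytochrome b6f complex 3 of 6 genes fell. Its petN went from 392.3 and 376.0 to 258.9 and 260.3 (-0.54, SE 0.16, adjusted p = 0.0319). Its petD went from 192.5 and 230.7 to 146.6 and 137.1 (-0.52, SE 0.17, adjusted p = 0.0447). Its petA, for cytochrome f, went from 6305.1 and 6288.3 to 4872.7 and 4269.1 (-0.46, SE 0.10, adjusted p = 0.00266). The ribosomal gene rpl16 fell from 875.7 and 829.4 to 540.0 and 709.0 (-0.45, SE 0.13, adjusted p = 0.0246). Of these 6, petA alone passed the threshold under every alternative run.

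**Figure D4:**
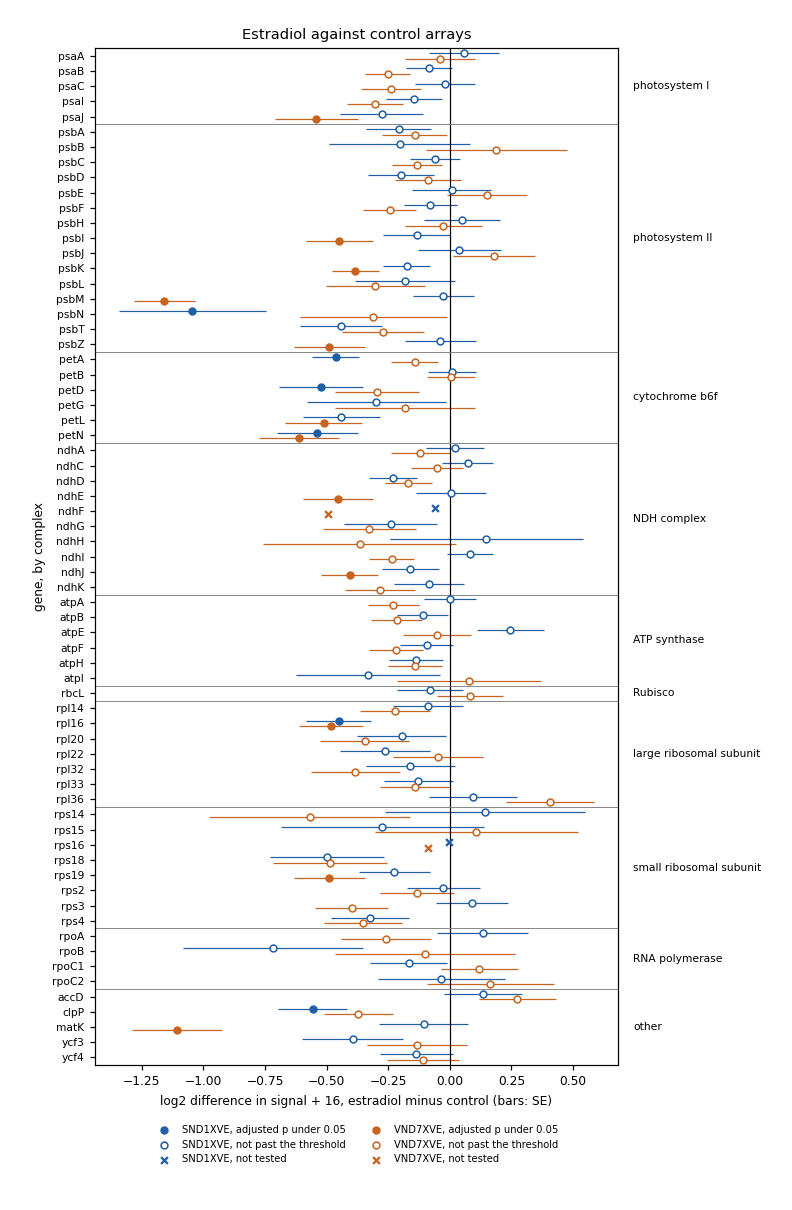
Each gene's difference between estradiol and control arrays in log2(signal + 16), with bars of 1 moderated SE, in SND1XVE (blue) and VND7XVE (orange) cells, 2 arrays a group. Filled points passed the adjusted threshold, 6 in SND1XVE and 12 in VND7XVE, and all of these lie to the left of 0.

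The 2 estradiol comparisons share no array. The genes petN and rpl16 fell in both, and 44 of 67 differences were negative in both. The matching shares of all probe sets were not computed. Neither petN nor rpl16 passed the threshold under every alternative run in either line. Of the 12 nuclear photosynthesis genes named, 0 passed limma's test in SND1XVE (0 at an unadjusted p under 0.05). In VND7XVE 0 of the 12 fell (1 at an unadjusted p under 0.05) and 1 rose. The gene that rose was PSAE-1, from 2443.5 and 2613.2 to 3412.8 and 3115.2 (0.37, SE 0.11, adjusted p = 0.0345). This count of 1 in 12 was near the 8.15% of all probe sets tested that rose in VND7XVE. Of the 6 mitochondrial genes tested, 0 passed in either line, and at an unadjusted p under 0.05 1 was lower in SND1XVE and 0 in VND7XVE. Shares of all probe sets at the unadjusted threshold were not computed.

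Whether the response differed between the lines was tested as the difference of the 2 effects. Of 65 genes, 2 passed, both with a lower value in VND7XVE, psbM at -1.13 (SE 0.18, adjusted p = 0.000979) and matK at -1.0 (SE 0.26, adjusted p = 0.044). Over all probe sets tested, 1.97% were called higher and 1.09% lower in this test. The effect in SND1XVE was -0.03 (SE 0.12) for psbM and -0.11 (SE 0.18) for matK. Both genes were also higher in the VND7XVE than in the SND1XVE controls, by 1.00 and 1.67, and those comparisons share the control arrays with the response. Of this pair psbM alone passed when either SND1XVE control, SND1XVE estradiol replicate 2, either VND7XVE control or VND7XVE estradiol replicate 1 was left out (adjusted p of matK 0.0988 to 0.265), and neither passed without the intensity trend (psbM adjusted p = 0.0919). Without SND1XVE control replicate 1, psbB passed with a higher value in VND7XVE (1.07, adjusted p = 0.0346), and without SND1XVE estradiol replicate 1, psaJ passed with a lower one (-0.66, adjusted p = 0.0323). For petN, the gene next to psbM on the chromosome, the difference of the effects was -0.07 (SE 0.23, adjusted p = 0.938). For psbA, next to matK, it was 0.07 (SE 0.19, adjusted p = 0.931). The median over the 67 genes was -0.09, against -0.03 over all probe sets.

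**Figure D5:**
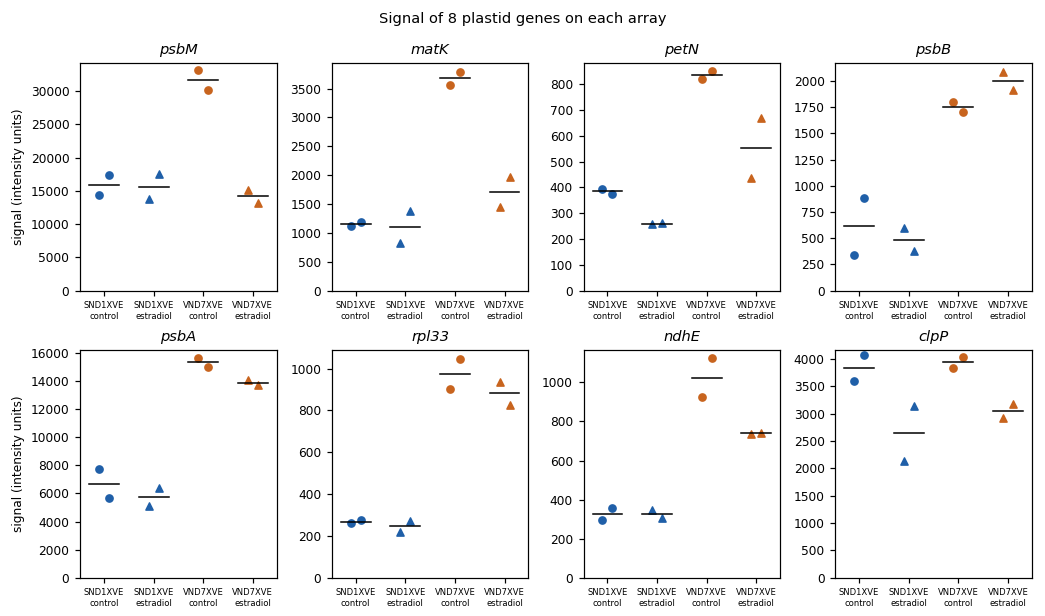
Signal of 8 plastid genes on each array (points; circles for control, triangles for estradiol; lines are group means of 2 arrays), each panel on its own linear axis from 0 in intensity units. psbM is high on the 2 VND7XVE control arrays alone, psbB, psbA, rpl33 and ndhE are high on all 4 VND7XVE arrays, and clpP overlaps between the control groups.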

How the data were processed

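Per the labels' protocols, labelling with biotin started from total RNA of protoplasts and used Affymetrix's 1-cycle kit. The authors deposited linear signal intensities for 8 arrays, made with GCOS per the submitters' processing notes (version and settings not given in the sources used here). Trimmed by 2%, the array means were 500.0 to 500.1, so the deposited intensity values were already scaled, and they were used as deposited. The number of arrays limits the precision. Detection calls were not used here.

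Groups and replicate numbers came from the sample titles. Probe sets were named from the platform annotation. The log2 of signal + 16 was analysed, a scale that understates changes of dim genes. A probe set was tested if its signal exceeded the array's 40th percentile on 2 or more arrays (14768). A model of 4 group means was fitted to all arrays with limma 3.58.1 in R 4.3.3 (eBayes with intensity trend, 4 residual degrees of freedom, two-sided), adjusted by Benjamini-Hochberg. The fit was tested on simulated data, against limits on bias, sign and false calls that replaced a requirement on recovery after the fit had missed it. Tables used Python 3.11.15 and pandas 2.3.3.

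The 67 genes, the lists and the comparisons were chosen with earlier results of these data known. Every gene was accounted for by complex. Named with values were the genes called in a comparison, of which those beyond the 10 largest were mostly summarised, and the brightest of each complex. Sequences were not used here. Alternatives varied the pseudocount (1 and 64), scaling, filter, variance model, replicate block and arrays.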

Additional observations from a re-analysis of the deposited data

Results flagged for a closer look

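The estradiol effect on psbM differed between the lines by the test of that difference, VND7XVE minus SND1XVE, at -1.13 (limma, adjusted p = 0.000979). The estradiol effect on matK differed in the same way, at -1.0 (adjusted p = 0.044). The adjusted p of psbM over the alternatives ran from 0.000416 to 0.0919, and that of matK from 0.00133 to 0.328. What set these genes apart was not tested.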

How the results depend on the processing

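In every alternative run, 0 of the plastid genes were called lower in VND7XVE than in SND1XVE. With all 8 arrays in the fit, the count called higher was 37 to 52 among the controls and 37 to 49 on the estradiol arrays. Both were lowest without the intensity trend, where 9.59% and 10.76% of all probe sets were called higher. Both counts were also smaller in some runs with 1 array left out. The median line difference on the estradiol arrays was 0.509 without SND1XVE estradiol replicate 1 and at most 0.704 (without VND7XVE estradiol replicate 1). In VND7XVE, the count of estradiol responses, 12, became 22 with median centring (median difference -0.344, while that of all probe sets was -0.146), 4 without the filter and 2 without the trend, and ranged from 2 to 15 with 1 array left out. In SND1XVE, the count of 6 became 2 without the filter (3.55% of all probe sets fell), 2 without the trend (3.97%) and 3 with the line's arrays alone (6.2%). It became 9 (all lower) with median centring, where 11.27% of all probe sets fell. With quantile normalization it was 8 (7 lower, 1 higher), against 7.85% lower and 8.45% higher of all probe sets. It moved both ways with 1 array left out. For the difference of effects, the count of 2 became 1 with a pseudocount of 1, with quantile normalization, without the filter and with robust estimation, 0 without the trend, and 1 to 3 with 1 array left out, of which 1 (psbB, without SND1XVE control replicate 1) was higher in VND7XVE. Its median over the genes turned from -0.09 to 0.001 without SND1XVE estradiol replicate 2 and was lowest, at -0.16, without SND1XVE control replicate 2. In the runs with all 8 arrays, 0.39% to 1.66% of all probe sets were called lower for the difference of effects. The fewer calls without the filter go with more probe sets tested. The cause of the other changes in these counts was not tested. The 10 genes with the largest differences in each line comparison were followed by name. Of these, 9 among the controls and 10 on the estradiol arrays passed under every alternative in which they were tested. On the estradiol arrays psbN was not tested in every alternative. The other genes called there were followed by count alone. Of the genes that responded, 2 of 12 in VND7XVE (psbM and matK), 1 of 6 in SND1XVE (petA) and 0 of 2 for the difference passed under every alternative. With the replicate number as a block, 7 genes were called in SND1XVE, 13 in VND7XVE, 2 for the difference, 52 among the controls and 47 on the estradiol arrays. Of all probe sets, 7.15%, 6.48% and 1.04% were then called lower in SND1XVE, in VND7XVE and for the difference. Among the controls 13.72% were called higher, and on the estradiol arrays 14.14%. Deviations of arrays with the same number correlated between -0.031 and 0.024, so no shared effect of the number was seen. Whether arrays with the same number were prepared together is not stated and cannot be told from these values. The number of arrays limits all counts.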
